A study of Drosophila melanogaster with 2 samples.

Results

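The genes that encode the subunits of the proteasome were examined in a chromatin immunoprecipitation and sequencing (ChIP-seq) study of Dif in whole larvae of Drosophila melanogaster. They were the protein-coding genes whose symbol begins with Prosalpha, Prosbeta, Rpn and a digit, or Rpt and a digit, in the Ensembl annotation. There were 48 such genes among 13945 protein-coding genes on the chromosome arms. Of these, 32 carry a plain number, and 16 carry a further letter such as R or T and are called paralogs here. The study has 1 group of 2 biological replicates, numbered 3 and 4. Each is a pool of male and female larvae of the strain Dif-GFP, taken at the wandering stage of the last larval instar with their age given as unknown, from a transgenic line in which GFP is joined to the C terminus of Dif and precipitated through GFP. Both replicates come from 1 strain. The labels name no promoter for the fusion, and all cell types of the animal contribute, so binding in few cells and weak binding in many cannot be told apart. The labels name a possible control experiment, which was not analysed here, so the data allow a description of positions and of agreement between replicates, and no test between groups.

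The proteasome is the large protease that degrades proteins marked with ubiquitin. Its 20S core is a barrel of alpha and beta rings, with the proteolytic sites inside the beta rings. The 19S particle caps it with a base, where the Rpt ATPases unfold substrates and some Rpn subunits bind ubiquitin, and a lid, whose subunit Rpn11 removes ubiquitin. Dif is a transcription factor of the NF-κB family that acts in fly immunity, and the proteasome degrades its inhibitor Cactus when the Toll receptor is active. Several of the paralogs, among them those with the letter T, are known as forms expressed in the testis.

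The promoters of the subunit genes, defined as the 250 bases before and the first 50 bases of the Ensembl canonical transcript, were searched for 8 short motifs, of which 1 is described first. The DNA replication-related element (DRE, TATCGATA, which reads the same on both strands) is the site of the factor DREF, known for promoters of growth and proliferation genes. It was present in 11 of the 32 plain-numbered genes (34.4%), in 1 of the 16 paralogs (6.25%) and in 8.94% of all 13945 promoters. These shares were not tested against each other. The sites of 7 of these genes are shown because they mark where the match lies. Each is 30 bases of the gene's own strand in the Release 6 (dm6) sequence from RefSeq, 5′ to 3′, with the DRE in capitals.
Prosalpha6: cccgaatccctTATCGATAcccgatacaca
Prosbeta2: ccatgaatataTATCGATAcaatatcgatt
Prosbeta6: gtatgtataccTATCGATAacgtttaagca
Rpn3: tgttatcggagTATCGATAtcgaaaaggct
Rpn7: gcggtataattTATCGATAattttggggtc
Rpn12: ttgttaaaataTATCGATAttaaagcacaa
Rpt5: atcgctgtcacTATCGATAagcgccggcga
The plus-strand sites lie at chr2L:10221324-10221353 (Prosalpha6), chr3L:14999930-14999959 (Prosbeta2), chr2L:19051582-19051611 (Rpn3), chr3L:16582801-16582830 (Rpn12) and chr3R:23752819-23752848 (Rpt5). The minus-strand sites lie at chr3L:16610444-16610473 (Prosbeta6) and chr3R:22462033-22462062 (Rpn7). The DRE began 10 to 46 bases before the transcription start site (TSS) at Prosalpha6, Prosbeta2, Prosbeta6 and Rpt5. It began at −197 from the TSS at Rpn3 and at −216 at Rpn12, and lay inside the transcript at Rpn7, at position 4 with the TSS counted as 1. The bases beside the octamer differed from gene to gene.

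Summits of tagged Dif near proteasome genes were mostly low-ranking in the strictest list. It is the optimal list of the irreproducible discovery rate (IDR) method, which limits disagreement between rankings of peaks. A peak in it need not have a close summit in both replicates, as described below for Prosalpha6 and Rpt5. A peak was given to a gene if its summit was at most 500 bp from one of the gene's TSSs. Of the 48 genes, 5 had one (10.4%, exact Clopper-Pearson 95% interval 3.47% to 22.7%), against 15.3% of all protein-coding genes. All 5 were plain-numbered genes (5 of 32, 15.6%), a share near that of all genes. None of the 16 paralogs had one, which allows up to 20.6% by the same interval. The count of 5 rests largely on replicate 3. When as many strongest peaks of 1 replicate took the place of the 4175 IDR peaks, replicate 3 alone gave 6 genes, the 5 and Rpn11, against 15.6% of all genes, and replicate 4 alone gave 1, Rpn13, against 14.8%. Intervals on shares cover counting error only, since genes are not replicates and neighbours can share a peak. Signals are the authors' own values per peak and were compared only within one list.

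The 5 genes were Prosalpha6, Prosbeta7, Rpn9, Rpn13 and Rpt5, 1 from each part of the complex. Prosalpha6 encodes a subunit of the alpha ring and had the strongest peak, at chr2L:10220747-10220990 with a signal of 149, rank 1749 of 4175. Its summit lay 482 bp upstream of the Prosalpha6 TSS and in the 5′ UTR of the divergent neighbour Npc1a, 83 bp from a TSS of that gene. Npc1a encodes a sterol transport protein. The peak was strong in replicate 3, where the summit 6 bp away had a signal of 134 and rank 1381 of 30000. In replicate 4 the nearest summit was 433 bp away, with a signal of 7.16 and rank 27573. The strongest summit that replicate 4 had within 500 bp of the Prosalpha6 TSS lay 179 bp downstream in the coding sequence, with a signal of 14.6 and rank 10767. The strong site was thus seen in replicate 3 and in the pooled list, and not in replicate 4.

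Rpn9, a structural subunit of the lid, was the member with 2 IDR peaks. The stronger, at chr3R:23732873-23733116, had a signal of 106, rank 3003, and a summit in the 5′ UTR of Rpn9, 16 bp downstream of a TSS. Replicate 3 had a summit 25 bp from it with a signal of 85.7 and rank 2803, and replicate 4 had one 25 bp from it with a signal of 17.8 and rank 8123. Both replicates thus held this summit, at a lower rank in replicate 4. The weaker peak had a signal of 90.6 and rank 3749, and its summit lay in the 5′ UTR of Rpn9, 88 bp downstream of the outer TSS. Its nearest summits were 0 bp away in replicate 3 (signal 60.5) and 214 bp away in replicate 4 (signal 12.3).

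The stretches of 150 bases, 120 before the TSS and 30 from it on, printed next show what lies at a gene's own start at Prosalpha6 and at the inner TSS of Rpn9. They are printed on the strand of the gene, with motif matches in capitals.
Prosalpha6: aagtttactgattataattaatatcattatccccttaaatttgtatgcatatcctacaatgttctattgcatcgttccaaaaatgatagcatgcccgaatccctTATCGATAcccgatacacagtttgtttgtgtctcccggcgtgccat
Rpn9: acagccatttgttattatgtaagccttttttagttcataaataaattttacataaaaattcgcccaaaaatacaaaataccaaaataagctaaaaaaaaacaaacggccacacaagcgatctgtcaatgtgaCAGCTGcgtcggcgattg
They lie at chr2L:10221231-10221380 on the plus strand and chr3R:23732982-23733131 on the minus strand. The Prosalpha6 stretch holds a DRE and covers the place of a weaker pooled summit, 11 bp downstream of the TSS with a signal of 46.0 and rank 10526. Replicate 3 had a summit on the same base, with a signal of 51.5 and rank 5867, and that of replicate 4 lay 179 bp downstream. The Rpn9 stretch holds an E-box, CAGCTG, in the first 30 transcribed bases. This motif was in 2 of the 32 plain-numbered promoters, Rpn8 and Rpt3 (6.25%, against 17.9% of all promoters). Within 100 bp of the strongest pooled summit it was found at 1 of 25 plain-numbered genes, Rpn9 (4.00%, against 14.1% of such summits over all genes).

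Rpt5 encodes an ATPase of the base, which threads substrates into the core. Its peak, at chr3R:23752757-23753000, had a signal of 95.3, rank 3474, and a summit 3 bp downstream of the Rpt5 TSS and 45 bp from the TSS of the divergent gene RanBP3. Replicate 3 had a summit 5 bp away with a signal of 95.9 and rank 2384. The nearest summit of replicate 4 was 641 bp away, outside the window, with a signal of 23.6 and rank 5354. The shown DRE of Rpt5 is 45 bp from the pooled summit. Rpn9 and Rpt5 lie close together on 3R, with canonical TSSs 19414 bp apart.

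Rpn13 is a ubiquitin receptor of the base. Its peak on 2R, at 13960646 to 13960889, had a signal of 95.2, rank 3483, and a summit in the 5′ UTR of the divergent gene CtsL1, which encodes a lysosomal cathepsin. The summit was 364 bp upstream of an Rpn13 TSS and 93 bp from a CtsL1 TSS. Replicate 3 had a summit 12 bp away with a signal of 67.5 and rank 3937, and replicate 4 had one 70 bp away with a signal of 32.1 and rank 3330. Of the 48 members, Rpn13 was the single one with a summit among the 4175 strongest peaks of both replicates (2.08%, against 10.6% of all protein-coding genes). Prosbeta7 encodes a beta ring subunit. Its peak, at chr3R:5358033-5358276, had a signal of 87.8, rank 3917, with the summit in its own 5′ UTR 20 bp downstream of a TSS. The replicates had summits 1 bp away (replicate 3, signal 73.1, rank 3530) and 67 bp away (replicate 4, signal 18.8, rank 7527). No other gene's TSS lay within 500 bp of this summit, whereas those of Prosalpha6, Rpn13 and Rpt5 each had a divergent gene's TSS within that distance.

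The IDR signals of the members, 87.8 to 149 with a median of 95.3, stood low in the list. The median over all 2127 genes with an IDR peak was 145, and the median rank was 3474 for the members and 1836 for all such genes. The weakest IDR peak had a signal of 83.9. Prosalpha3, an alpha ring subunit, lay just below that limit, with a pooled signal of 82.1 at rank 4315.

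**Figure D1:**
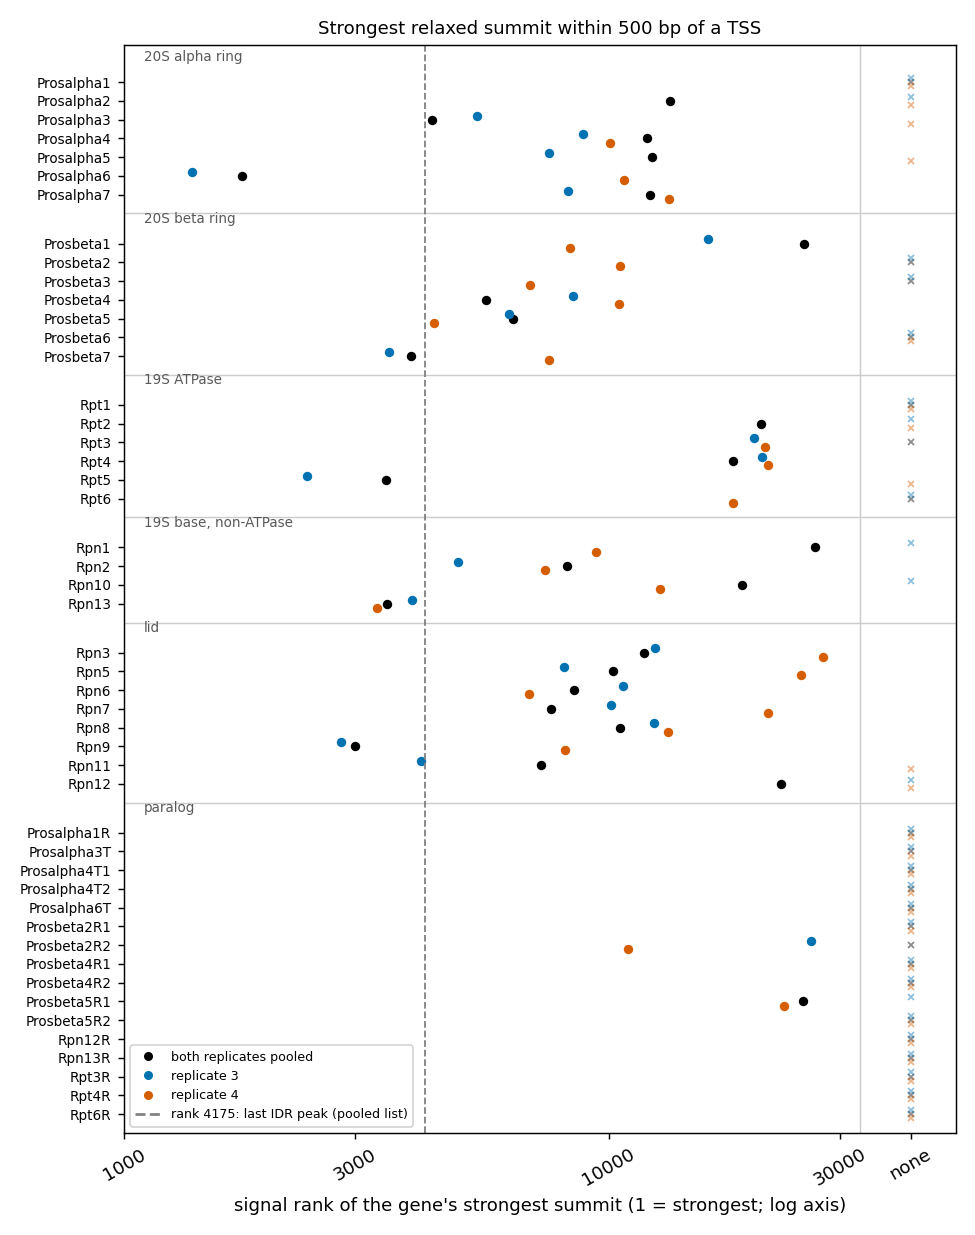
Signal rank (x axis, log scale, 1 is the strongest) of the strongest relaxed summit within 500 bp of a TSS of each of the 48 genes, in the pooled list and in each replicate, with crosses for no summit. The dashed line is rank 4175, the last IDR peak in the pooled list, and of the paralogs only Prosbeta2R2 and Prosbeta5R1 have a summit in any list.

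The relaxed lists, which hold 30000 peaks and background regions each, gave a second view at lower stringency. In the pooled list 26 of the 48 genes had a summit (54.2%, against 50.5% of all protein-coding genes). Nearly all of these were plain-numbered genes. Of the 32 plain-numbered genes 25 had a pooled summit (78.1%, exact interval 60.0% to 90.7%), and of the 16 paralogs 1 did (6.25%, 0.158% to 30.2%). Replicate 3 had a summit at 21 of the 32 and 1 of the 16, or 22 of 48 in all, against 50.3% of all protein-coding genes. Replicate 4 had one at 22 of the 32 and 2 of the 16, or 24 of 48, against 51.5%. The order was the same in each list, and the paralogs' shares were each below the background.

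A limit on q removed most members from the pooled list and fewer from the replicates' lists. With q at most 0.01 the pooled list left 11 of the 26 genes, all plain-numbered (22.9% of the 48, against 25.4% of all genes). Replicate 3 left 14 of 22, all plain-numbered, against a background of 29.2%. Replicate 4 left 14 of 24, of which 13 were plain-numbered, against 34.1%. Over all 48 genes these shares lie near or below the background. Over the 32 plain-numbered genes the shares were 34.4%, 43.8% and 40.6%. Their exact intervals were wide (18.6% to 53.2%, 26.4% to 62.3% and 23.7% to 59.4%), and the difference from the background was not tested. The median pooled signal at the 25 plain-numbered genes was 46.8 and ran from 27.4 to 149, and the median over all 7043 genes with a pooled summit was 53.5.

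Among the alpha ring genes 6 of 7 had a pooled summit (exact interval 42.1% to 99.6%), against 50.5% of all protein-coding genes. These genes form the outer rings of the core and control entry to it. Besides Prosalpha6 and Prosalpha3, the signals of Prosalpha2, Prosalpha4, Prosalpha5 and Prosalpha7 lay between 40.1 and 42.7. In replicate 3, 5 of 7 had a summit, and in replicate 4, 3 of 7, against 50.3% and 51.5% of all protein-coding genes. Prosalpha3 had a summit in replicate 3, with a signal of 54.7 and rank 5356, and none in replicate 4. The pooled summit of Prosalpha3 lay in its own coding sequence 93 bp downstream of the TSS. Prosalpha1 had no summit in any list, and its nearest pooled summit lay 2363 bp from its TSS.

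Among the beta ring genes 4 of 7 had a pooled summit (exact interval 18.4% to 90.1%). In replicate 3, 4 of 7 had one, and in replicate 4, 6 of 7. Over all protein-coding genes the shares were 50.5%, 50.3% and 51.5%. Prosbeta4 had a pooled signal of 68.5 at rank 5581, with signals of 41.0 in replicate 3 and 14.9 in replicate 4, at ranks 8450 and 10490. Its summits lay 107, 116 and 100 bp downstream of the TSS in the 3 lists. Prosbeta5, which carries the chymotrypsin-like site, had a pooled signal of 62.7 at rank 6366, and ranked 6244 in replicate 3 and 4364 in replicate 4. Prosbeta1, the caspase-like subunit, had a weak pooled summit with a signal of 28.2. Prosbeta2, the trypsin-like subunit, and Prosbeta3 had a summit in replicate 4 alone, with signals of 14.8 and 19.9. Prosbeta6 had no summit in any list. All 3 proteolytic subunits had a replicate 4 summit with q at most 0.01. So did 6 of the 7 beta ring genes in all, against 34.1% of all protein-coding genes. In the pooled list and in replicate 3 the 3 proteolytic subunits differed.

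Among the ATPases of the base, Rpt2, Rpt4 and Rpt5 had a pooled summit, and each lay within 8 bp of a TSS. This is 3 of 6 (exact interval 11.8% to 88.2%), against 50.5% of all protein-coding genes. Rpt2 had a signal of 31.8 and no summit in either replicate. Rpt4 had a pooled signal of 34.2, with ranks of 20737 in replicate 3 and 21373 in replicate 4. Rpt3 had a summit in each replicate and none in the pooled list. The closest pair of these summits was 853 bp apart, so both replicates did not mark one site there. Rpt6 had a summit in replicate 4 alone, with a signal of 10.1, and Rpt1 had none in any list. Apart from Rpt5, no ATPase gene had a summit with q at most 0.01 in any relaxed list.

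All 4 other base genes had a pooled summit (exact interval 39.8% to 100%), against 50.5% of all protein-coding genes. Rpn2, a scaffold of the base, had 2, with signals of 53.5 and 49.2. The stronger lay 285 bp upstream, in the 5′ UTR of the divergent gene Slbp and 27 bp from its TSS, and the other lay in the Rpn2 coding sequence 283 bp downstream. Replicate 3 ranked the upstream site 4884, and replicate 4 had a summit at the downstream site, at rank 7389, 8 bp from the weaker summit of replicate 3. Rpn10, a ubiquitin receptor, and Rpn1, a scaffold that docks shuttle proteins, had weak pooled summits with signals of 33.4 and 27.4. Both also had a summit in replicate 4, at ranks 12783 and 9442, and none in replicate 3.

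All 8 lid genes had a pooled summit (exact interval 63.1% to 100%), 7 had one in replicate 3 and 6 in replicate 4. Over all protein-coding genes the shares were 50.5%, 50.3% and 51.5%. With q at most 0.01 the lid counts in these 3 lists were 3, 3 and 2 of 8. The shares of all protein-coding genes with that limit were 25.4%, 29.2% and 34.1%. Rpn11, the deubiquitinase, had a pooled signal of 57.6 at rank 7262 and a replicate 3 signal of 65.7 at rank 4098, and no summit in replicate 4. Rpn7 had a pooled signal of 55.9 at rank 7625, 380 bp upstream of its TSS and 21 bp from that of the divergent gene AP-2mu, a clathrin adaptor. Rpn6 had a pooled signal of 52.2 and summits on the same base, 5 bp upstream of a TSS, in both replicates, at ranks 10714 and 6855. Rpn9 was the other gene whose replicates had a summit on the same base. Rpn3, Rpn5 and Rpn8 had pooled signals of 43.0, 46.8 and 45.9. Rpn12 had the weakest lid summit, with a signal of 30.1, and none in either replicate.

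The 16 paralogs had almost no summits. No list held one for 14 of them, which are Prosalpha1R, Prosalpha3T, Prosalpha4T1, Prosalpha4T2, Prosalpha6T, Prosbeta2R1, Prosbeta4R1, Prosbeta4R2, Prosbeta5R2, Rpn12R, Rpn13R, Rpt3R, Rpt4R and Rpt6R. Prosbeta5R1 had a pooled signal of 28.3 at rank 25224 and a replicate 4 signal of 8.38. Prosbeta2R2 had no pooled summit, a signal of 21.4 in replicate 3 and one of 14.4 in replicate 4, 337 bp apart. The median distance from a TSS to the nearest pooled summit was 6618 bp for the paralogs, 94.5 bp for the plain-numbered genes and 480 bp for all protein-coding genes. Paralogs had a divergent neighbour, a TSS on the other strand within 500 bp upstream, in 3 of 16 cases, and plain-numbered genes in 21 of 32 (65.6%), against 27.4% of all genes. Of all genes with a divergent neighbour 63.7% had a pooled summit, and of those without one 45.5%. The part of this arrangement in the shares was not tested. Among plain-numbered genes 17 of 21 with such a neighbour and 8 of 11 without one had a pooled summit.

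**Figure D2:**
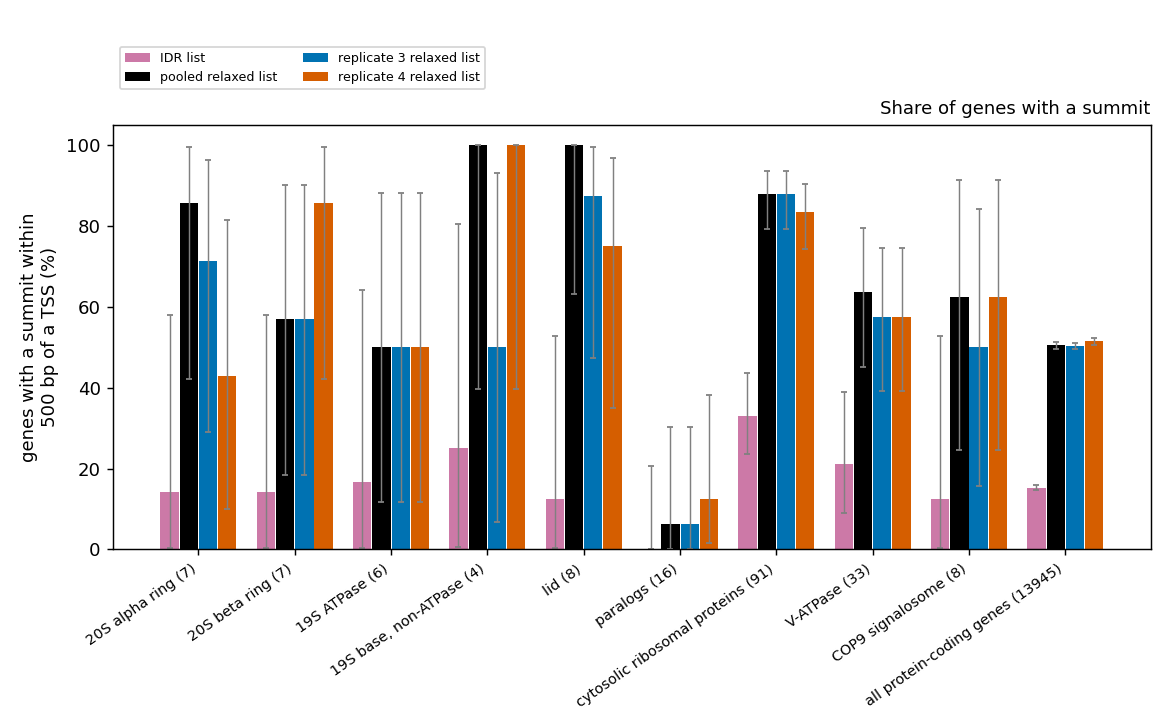
Share of genes (y axis, %) with a summit within 500 bp of a TSS in the IDR list and the 3 relaxed lists, by group, with the number of genes in brackets and exact 95% intervals as error bars. The lid and non-ATPase base bars reach 100% in the pooled list, the paralog bars stay at or below 12.5%, and the intervals of the small groups are wide.

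Both replicates had a relaxed summit at 18 of the 48 genes (37.5%, against 38.6% of all protein-coding genes). These 18 were 81.8% of the 22 genes of replicate 3 and 75.0% of the 24 of replicate 4. Over all genes the shares were 76.7% and 75.0%. At 11 of the 18 the closest summits of both replicates lay within 100 bp of each other (61.1%, against 66.7% of all such genes). The signal ranks of the strongest summits gave a Spearman rho of 0.496 across the 18 genes and of 0.643 across all 5384 genes with a summit in both. These are descriptions across genes that share the same 2 libraries. Of the 18, 13 ranked higher in replicate 3 than in replicate 4 (72.2%, against 51.3% of all genes). How deeply either library was sequenced is unknown, and the part of depth in this was not tested.

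**Figure D3:**
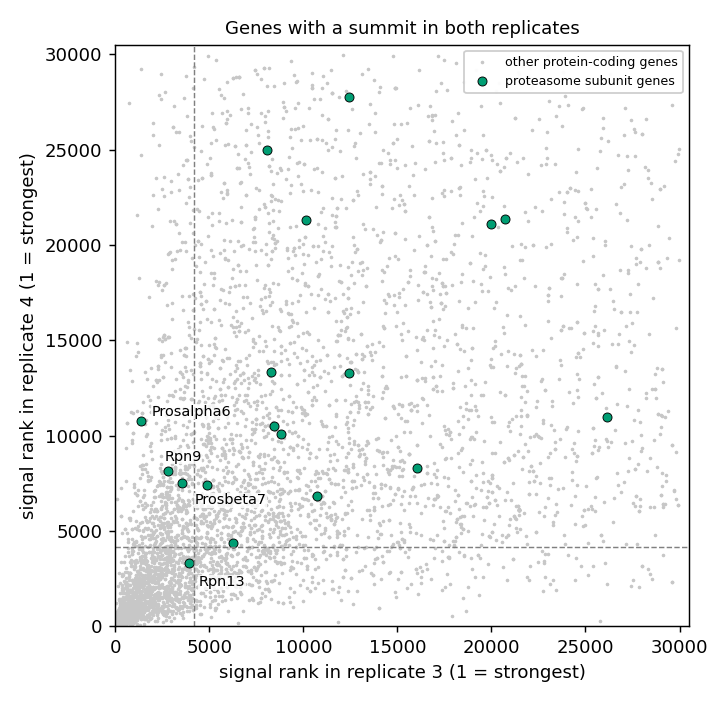
Signal rank in replicate 3 (x axis) and replicate 4 (y axis) of the strongest summit of each gene with a summit in both, with the 18 proteasome genes in green and other genes in grey. Dashed lines mark rank 4175, and Rpn13 is the single green point inside both.

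By the share within 100 bp and the median distance, summits at the plain-numbered genes lay about as near to the TSS as those of all genes. Only summits within 500 bp of a TSS could be counted. The strongest pooled summit was within 100 bp of a TSS in 14 of 25 genes (56.0%, against 49.9% of all genes with a pooled summit), with a median distance of 93.0 bp against 101 bp. It lay upstream of the TSS in 15 and downstream of it in 10. All 4 beta ring genes with a pooled summit had it downstream. The split of sides was not computed over all genes. At 5 of the 25, Prosalpha6, Rpn2, Rpn5, Rpn7 and Rpn13, the nearest TSS was that of another gene, against 15.0% of all genes with a pooled summit. Rpn5, a lid subunit, had its strongest summit 10 bp from the TSS of Hat1 and a second one, with a signal of 42.9, 62 bp downstream of its own TSS.

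**Figure D4:**
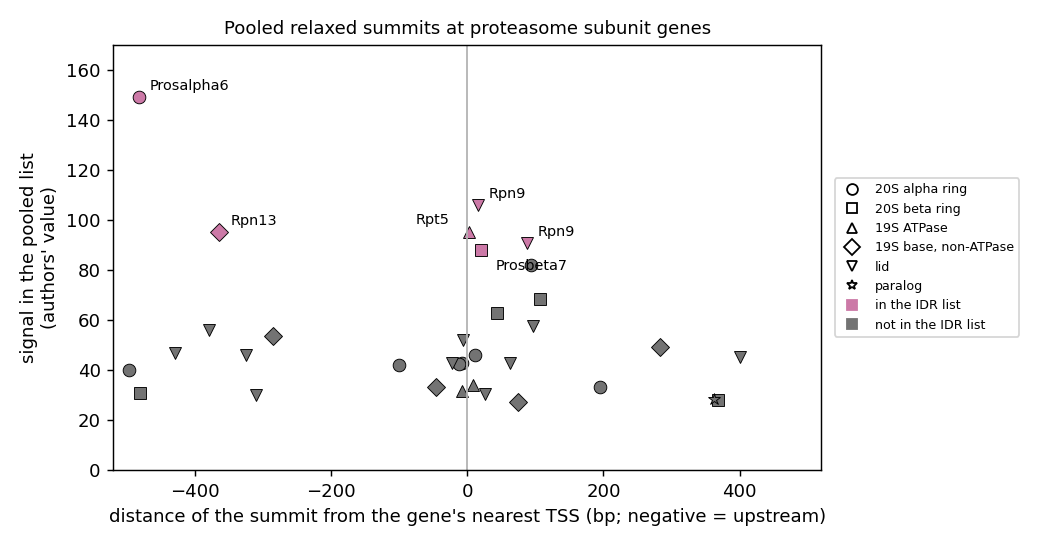
Distance of each pooled summit from the nearest TSS of its gene (x axis, bp, negative is upstream) against its pooled signal (y axis, the authors' value), with 1 symbol for each division of the complex. The 6 IDR summits are in pink. Those of Prosalpha6 and Rpn13 lie upstream at 482 and 364 bp, and the other 4 lie within 88 bp of a TSS.

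The members were spread over 5 arms. The plain-numbered genes numbered 4 on 2L, 10 on 2R, 5 on 3L, 9 on 3R and 4 on X, and 3 of the 5 with an IDR peak were on 3R, where 558 of all 3421 genes had one. On X none of the 4 had an IDR peak and 2 had a pooled one, against 296 and 940 of all 2196 genes there. On 3L the counts were 0 and 3 of 5, against 421 and 1470 of 2739.

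Motifs at the summits themselves were few. Within 100 bp of the strongest pooled summit of the 25 plain-numbered genes, on either strand, the GAGA motif (GAGAGAG) was found at 1, the Prosalpha6 summit beside Npc1a, against 14.5% of 5992 such summits over all genes. DRE was found at 2, Prosalpha5 and Rpt5 (8.00%, against 4.46%). The antioxidant response element (ARE, TGACNNNGC, the type of site of Cnc, a known activator of proteasome genes) was found at 2, Rpn1 and Rpn11 (8.00%, against 6.93%). The broad κB pattern, GGG and CC with 5 bases of any kind between, was found at 2, Prosbeta4 and Rpn1 (8.00%, against 11.1%). Motif 1, a core promoter element, was found at 2, Prosalpha4 and Rpn1, against 3.22%. The Rpn1 window thus held 3 of these patterns and had one of the weakest summits. The TATA box (TATAAA) was found at 2 and the E-box CACGTG at 0, against 17.6% and 3.34%. Within 100 bp of the strongest IDR summit of each of the 5 genes, neither the κB pattern nor the ARE was found. Over all genes 10.4% and 7.17% of such summits held them. At Prosbeta7 an ARE match lay in the 150 bases around the TSS nearest the summit, not wholly inside that window. A match describes the letters in the window and is not a site shown to be bound.

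In the promoters, the TATA box was present in 13 of the 32 plain-numbered genes (40.6%, against 45.3% of all promoters) and Motif 1 in 4 (12.5%, against 4.36%). The GAGA motif was absent from all 32 plain-numbered genes, against 6.20% of all promoters, and present in 2 paralogs, Prosbeta2R2 and Rpt4R. The ARE was present in 5 of the 32, Prosalpha2, Prosbeta3, Rpn1, Rpn7 and Rpt6 (15.6%, against 8.48%). The κB pattern was present in 4, Prosalpha2, Prosbeta2, Rpn1 and Rpt4 (12.5%, against 12.5%). Among the plain-numbered genes, pooled summits were found at 9 of 11 with a DRE and 16 of 21 without, and over all genes at 62.6% with a DRE and 49.3% without. IDR peaks were found at 3 of 11 and 2 of 21. Over all genes, 13.6% of promoters with a DRE and 15.4% of those without had an IDR peak.

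Other genes of the ubiquitin and proteasome pathway were taken from 4 lists, with 22 of 23 symbols matched. Of these, 7 had an IDR peak, against 15.3% of all protein-coding genes, and 15 a pooled summit, against 50.5%. Ubiquitin and its activation gave 4 of 5 in the IDR list, with Ubi-p63E (signal 195, rank 1124), a polyubiquitin gene, highest. The ubiquitin fusion gene RpS27A had a signal of 119, the activating enzyme Uba1 93.8 and Ubi-p5E 92.0, while RpL40 had no summit in any list. Ubi-p63E ranked 1103 in replicate 3 and 1003 in replicate 4. Uba1 had no summit in replicate 4. Among shuttle and unfoldase genes, TER94, the p97 ATPase, had a signal of 135 and its cofactor p47 one of 102, and the other 4 had no IDR peak. Of the regulators, cnc, which encodes the Nrf-type activator of proteasome genes, had an IDR signal of 233, rank 815, 95 bp upstream of a TSS. It ranked 1164 in replicate 3 and 141 in replicate 4, in each case above the strongest proteasome gene, which was Prosalpha6 at 1381 in replicate 3 and Rpn13 at 3330 in replicate 4. Keap1, an inhibitor of Cnc, had a pooled signal of 75.1 and no IDR peak. None of the 7 assembly and accessory factors, Pomp and PI31 among them, had an IDR peak, and 4 had a pooled summit.

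Set beside other multi-subunit complexes, proteasome genes had IDR peaks at 5 of 48, against 15.3% of all protein-coding genes. Cytosolic ribosomal protein genes had them at 30 of 91 and V-ATPase genes at 7 of 33. Genes of the COP9 signalosome, a complex related to the lid, had them at 1 of 8. Pooled summits were found at 26 of 48, 80 of 91, 21 of 33 and 5 of 8, against 50.5% of all protein-coding genes. Of the plain-numbered proteasome genes alone, 5 of 32 (15.6%) had an IDR peak and 25 of 32 (78.1%) a pooled summit. The median pooled signal was 46.3, 71.4, 72.7 and 38.4. The groups differ in how many paralogs their symbols bring in, and the differences between them were not tested.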

How the data were processed

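ChIP-seq peak lists for 1 group of 2 replicates were used. The authors deposited, per the file headers and listings, narrowPeak tables for dm6 and dm3, and the dm6 tables were used: 30000 peaks and background regions for each replicate and for both pooled, and 4175 IDR peaks. Neither an aligner, a peak caller nor a control library is named there. The deposited signal per peak is the authors' own value, of unstated scaling, and the deposited −log10 q value was used with a minimum of 2. All 4175 IDR peaks are the 4175 strongest pooled peaks. The files give no counts, so the depth is unknown.

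Genes and TSSs came from Ensembl release 115 and sequence from RefSeq Release 6. Python 3.11.15, NumPy 2.4.6 and SciPy 1.17.1 were used. Coordinates are 1-based. Assignment of planted summits to genes was tested on simulated data. Members and lists were chosen with earlier results of these data known. Members with an IDR peak, the 5 strongest pooled ones without, and those with no pooled summit were named by rule, and other members by their role. No p-values were computed. A neighbouring gene is not reported here. Alternatives covered the TSS window, the nearest TSS, list strictness, single replicates and the motif window.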

Additional observations from a re-analysis of the deposited data

How the results depend on the processing

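The count of 5 members with an IDR peak stayed at 5 with a window of 1000 bp and with any base of the peak in the window. It was 3 at 200 bp, 3 with each summit given to its closest TSS alone, and 1 among the peaks above the list's median signal. Leaving out 1 replicate gave 1 to 6. The pooled count of 26 was 19 at 200 bp, 27 at 1000 bp and 24 by closest TSS, but 11 with q at most 0.01 and 12 among the 10000 strongest. Those 2 settings gave 14 and 14 in place of 22 in replicate 3, and 14 and 9 in place of 24 in replicate 4. Among the strongest peaks of both replicates the count of 1 was 0 at 200 bp, 5 with 2 times as many peaks and 18 with all of them. The median IDR rank of 3474 was replaced by ranks in 1 replicate's own list of 30000 when the other replicate was left out. The median was 2803 over the 5 genes in replicate 3, and 7825 over 4 genes in replicate 4. Rpt5 had no summit in replicate 4, and Prosalpha6 entered there with another summit, 179 bp downstream of its TSS. These 3 medians thus come from different lists and partly different summits. With 50 and 250 bp around summits, DRE was found at 1 and 6 and TATA at 1 and 10, and CACGTG at 1 with 250 bp. The median summit distance of 93.0 bp was 46.0 bp for the nearest summit. Paralogs held at most 2 members under every setting run. No paired analysis was possible because there is 1 group. Unknown depth limits all statements on missing summits.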
